A study of Mus musculus with 2 samples.

Results

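The genes described here are the cadherins and protocadherins of mouse brain, chosen by name as every gene symbol in the deposited transcript tables that is Cdh followed by digits or that begins with Pcdh. The rule found 94 of 23329 genes and 119 of 30383 transcripts. It used no measured value. The 94 genes comprised 59 clustered protocadherins (15 in the Pcdha cluster, 22 in the Pcdhb cluster and 22 in the Pcdhg cluster), 12 other protocadherins and 23 cadherins. The study set RNA of a synaptosome-enriched fraction of brain against RNA of total homogenate, with 1 library of each, both from wild-type C57BL/6 mice and labelled as whole brain. Synaptosomes are the sealed nerve endings, often with postsynaptic membrane attached, that form when brain is homogenised. The fraction was the layer between 3% and 10% Percoll of a supernatant from which nuclei had been spun down, and sequencing libraries came from a kit for stranded mRNA. The labels give neither the age nor the sex of the mice, nor the number of brains behind each library. Both sample titles end in CT10, which the labels do not explain.

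Cadherins are membrane proteins whose extracellular repeats bind calcium and join cells. Classical cadherins hold the same cadherin on the opposing cell and are tied to actin through catenins, whereas most protocadherins lack the catenin-binding tail. The clustered protocadherins of mouse lie in tandem arrays, and each neuron uses a small set of them, so that the combination on its surface lets its own dendrites and axons recognise one another. Non-clustered protocadherins of the delta families act in axon growth and at synapses.

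The synaptosome library held 13709528 estimated counts and the homogenate library 15210838, with at least 1 count for 16763 genes in the synaptosome fraction and 17453 in the homogenate. Ratios are synaptosome over homogenate, scaled by TMM, which assumes that most genes do not differ. CPM are counts relative to library size, scaled the same way except where a minimum is applied, and TPM are levels per transcript length. No fraction had a replicate, so there was no test. Genes averaging 1 CPM or more over both libraries were compared. Such a gene is called higher or lower here if the difference was 2-fold or more and the exact 95% Clopper-Pearson interval of counting error excluded 1. Intervals cover counting error alone, not the division of reads among transcripts, and PCR copies are not independent molecules. Scaling by library totals instead moves every log2 ratio by -0.49 and the median of all genes to -0.51, against -0.01 with TMM, so all directions are relative to the typical gene. In bulk RNA of this kind, fewer cells or processes of a type cannot be told apart from less RNA in each.

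Most cadherin and protocadherin mRNAs were more abundant in the synaptosome fraction relative to other mRNAs, and the clustered protocadherins were furthest from the typical gene. Of the 94 genes, 86 passed the minimum of 1 CPM, 61 of those were higher by 2-fold or more and 0 were lower by as much. Over all 14153 genes at that minimum, 12.8% were higher and 9.10% lower. The median log2 ratio of the 86 genes was 1.25, and 84 had a ratio above 1, compared with 49.3% of all genes. Together the 94 genes made up 0.428% of counts in the synaptosome fraction and 0.231% in the homogenate. With library totals, 34 of the 86 were higher and 2 were lower (Cdh5 and Pcdh15), against 4.49% higher and 25.6% lower of all genes, and the median was 0.76. Under that scaling 77 of the 86 kept a ratio above 1. The 7 that moved below 1 were Pcdha3, Cdh12, Cdh15, Cdh18, Cdh19, Cdh23 and Cdh24.

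The 3 kinds of gene differed in how far they stood from the typical gene. Of 56 clustered protocadherins at the minimum, 51 passed the 2-fold limit upward, and their median log2 ratio was 1.55. Of 11 non-clustered protocadherins 6 did, at a median of 1.04, and of 19 cadherins 4 did (21.1%), at a median of 0.64. Over all genes 12.8% did. With library totals the medians were 1.06, 0.55 and 0.15, and the numbers higher were 32, 2 and 0, beside 4.49% of all genes. The gaps between the 3 medians do not depend on the scaling, but with 1 library per fraction they have no test.

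**Figure D1:**
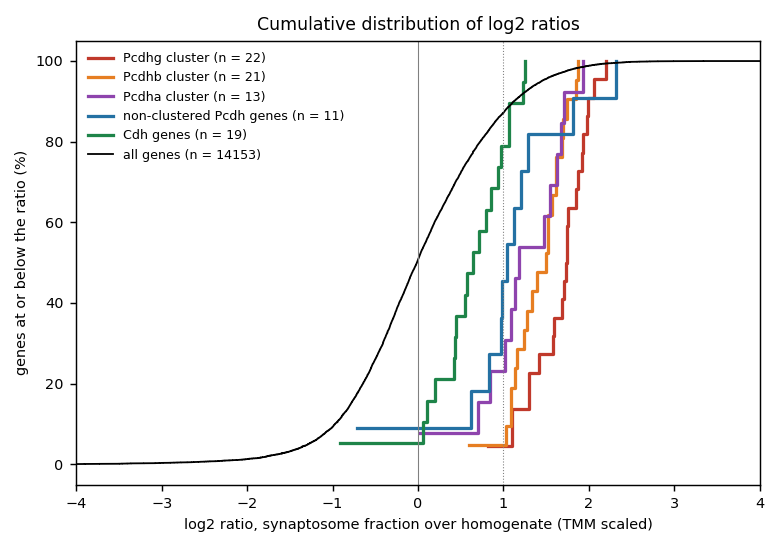
Cumulative share of genes (%, vertical axis) at or below each log2 ratio of synaptosome fraction over homogenate (horizontal axis, TMM scaled, -4 to 4), for the 3 protocadherin clusters, the non-clustered protocadherins, the cadherins and all 14153 genes of at least 1 CPM. The dotted line marks 2-fold higher; the curve of all genes crosses 50% near a log2 ratio of -0.01, and those of the cadherins and Pcdhg cluster do so at 0.64 and 1.74.

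The ratio was related to abundance over all genes, so the members were also set beside genes of like level or length. In each class 0 members were lower by 2-fold or more. Of members with a mean between 1 and 10 CPM, 16 of 30 were higher, beside 9.86% of all such genes, of which 17.5% were lower. Between 10 and 100 CPM 40 of 50 were higher, beside 10.1% of all genes higher and 6.18% lower. At 100 CPM or more 5 of 6 were higher, beside 27.3% higher and 4.12% lower. Among genes whose longest transcript had 4000 to 6000 bases, 36 of 47 members were higher, compared with 13.0% of all genes of that length. In each of these classes the members' share lay above that of all genes.

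The clustered protocadherins occupy chromosome 18 in the order Pcdha, Pcdhb, Pcdhg, at 36930285 to 37187660, 37264998 to 37521419 and 37661945 to 37841872 on mm10. Each Pcdha or Pcdhg transcript joins its own large first exon, which encodes the extracellular and transmembrane parts, to 3 constant exons that all isoforms of the cluster share. In the deposited transcript models the shared exons made up 2860 to 2863 bases, or 52.7 to 54.9%, of the 14 Pcdha transcripts that hold them. In the 22 Pcdhg transcripts they made up 2109 to 2118 bases, or 41.7 to 47.2%. The entry Pcdha4-g joins an alpha first exon to constant exons of the gamma cluster. Pcdhb genes are single exons with no shared part. Reads from constant exons cannot be assigned to one isoform, and the counts were whole numbers, to within 0.005, in both libraries for 0 of 15 Pcdha and 0 of 22 Pcdhg genes. They were whole for 9 of the 21 Pcdhb genes with counts. Sums over a cluster do not depend on how its own isoforms divide these reads, whereas the value of a single Pcdha or Pcdhg isoform does. The exception is Pcdha4-g, whose 16 counts in the synaptosome fraction and 8 in the homogenate are in the Pcdha sum although its constant exons are gamma. Pcdhb genes resemble each other in sequence, so reads may also have been divided among them.

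The Pcdhg cluster was the most abundant and stood highest in the synaptosome fraction. Its summed level was 999.8 TPM in the synaptosome fraction and 422 TPM in the homogenate, with 27334 and 12391 counts, a ratio of 3.44-fold (95% counting interval 3.37 to 3.52). The Pcdhb cluster summed to 158.8 TPM in the synaptosome fraction and 88.3 TPM in the homogenate, with 3118 and 1853 counts, 2.63-fold higher (2.48 to 2.78). The Pcdha cluster summed to 134 TPM in the synaptosome fraction and 82.7 TPM in the homogenate, with 4158 and 2767 counts, 2.35-fold higher (2.24 to 2.46). The interval of the Pcdhg sum did not meet those of the other clusters, so the difference was beyond counting error, while the spread between preparations is unknown. With library totals the 3 sums were 2.45-fold (Pcdhg), 1.87-fold (Pcdhb) and 1.67-fold (Pcdha) higher.

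**Figure D2:**
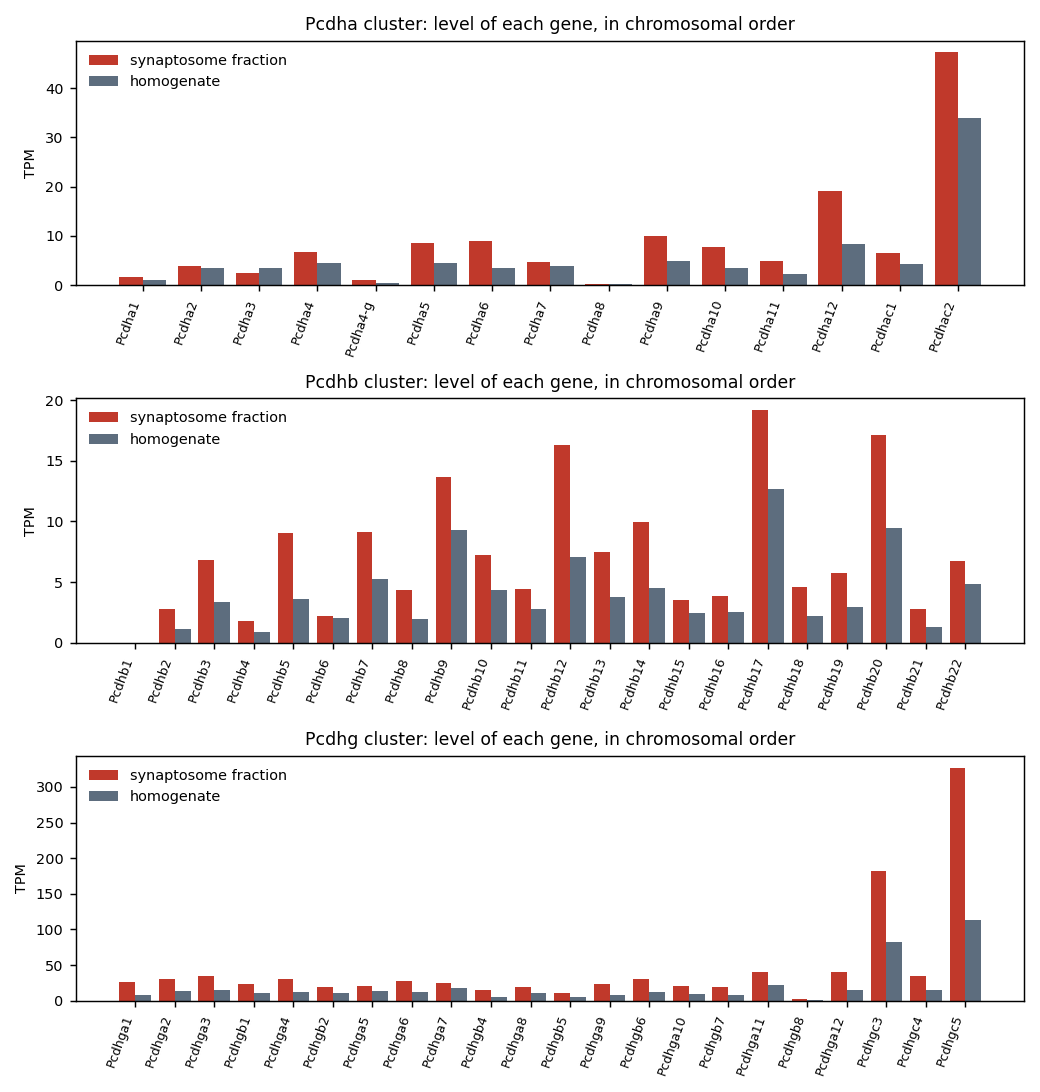
Level of every clustered protocadherin gene (vertical axes, TPM, each panel on its own scale from 0) in the synaptosome fraction (red) and the homogenate (grey), in chromosomal order along the horizontal axes. Pcdhgc5 reaches 327 TPM in the synaptosome fraction and 113 TPM in the homogenate; most other bars are taller in the synaptosome fraction.

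Pcdhgc5, a gamma isoform of the C type that is reported to bind GABA type A receptors, had the highest level of all 94 genes. It stood at 327 TPM in the synaptosome fraction and 113 TPM in the homogenate (8973 and 3349 counts, log2 ratio 2.06). Its share of the Pcdhg counts was 32.8% in the synaptosome fraction (exact binomial 95% interval 32.3 to 33.4%) and 27.0% in the homogenate (26.2 to 27.8%). That share does not depend on the scaling, and without Pcdhgc5 the log2 ratio of the Pcdhg sum was 1.66. Pcdhgc3, an isoform that promotes dendrite branching, had 182 TPM in the synaptosome fraction and 82.0 TPM in the homogenate (4964 and 2410 counts, log2 ratio 1.69). Its share of the cluster was slightly lower in the synaptosome fraction, at 18.2% there and 19.5% in the homogenate. Pcdhgc4, which is needed for the survival of interneurons, had 34.3 TPM in the synaptosome fraction and 14.7 TPM in the homogenate, with a log2 ratio of 1.76.

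The gamma isoforms of the A and B types were lower in level and mostly more abundant in the synaptosome fraction too. All 12 Pcdhga genes passed the 2-fold limit upward, at log2 ratios between 1.10 and 2.19, and 8 did with library totals. Over all genes 12.8% did, and 4.49% with library totals. Pcdhga1 had the highest ratio of the cluster, with 695 counts in the synaptosome fraction and 237 in the homogenate. Pcdhga9 (633 and 248 counts, log2 ratio 1.99) and Pcdhga12 (1194 and 474 counts, 1.98) followed it among the A type. Pcdhga7 (684 counts in the synaptosome fraction and 499 in the homogenate) and Pcdhga5 (543 and 394) were lowest of the A type, at log2 ratios of 1.10 and 1.11. Among the A type the level in TPM ran between 19.1 and 40.2 in the synaptosome fraction and between 8.33 and 21.9 in the homogenate. Of 7 Pcdhgb genes, 6 were at least 2-fold higher (5 with library totals), led by Pcdhgb4 (386 and 158 counts, 1.93) and Pcdhgb7 (514 and 213 counts, 1.91). Pcdhgb8 was the least abundant gamma gene and the exception, with 51 counts in the synaptosome fraction and 45 in the homogenate and a log2 ratio of 0.82 whose interval ran between 0.22 and 1.43. The C type held 54.7% of gamma counts in the synaptosome fraction and 50.2% in the homogenate, the A type 33.6% and 37.1%, and the B type 11.8% and 12.7%.

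In the Pcdha cluster 10 of 13 genes at the minimum passed the 2-fold limit upward, beside 12.8% of all genes. The median log2 ratio of the 13 was 1.18. With library totals 5 of the 13 passed the limit, beside 4.49% of all genes. Pcdhac2, the C-type isoform that serotonergic axons use to space themselves, was the most abundant. It had 47.3 TPM in the synaptosome fraction and 34.0 TPM in the homogenate (1500 and 1160 counts, log2 ratio 1.01, close to the 2-fold limit). Its share of Pcdha counts was 36.1% in the synaptosome fraction (34.6 to 37.5%) and 41.9% in the homogenate (40.0 to 43.8%). Thus the most abundant alpha isoform took a smaller share in the synaptosome fraction, and the most abundant gamma isoform a larger one. Pcdha12 had 586 counts in the synaptosome fraction and 279 in the homogenate (log2 ratio 1.71), a share of 14.1% and 10.1% of the cluster. Pcdha6 had the highest ratio, with 278 counts in the synaptosome fraction and 114 in the homogenate (log2 ratio 1.93, interval 1.61 to 2.26). Pcdha3 had the lowest, with 75 counts in the synaptosome fraction and 115 in the homogenate (log2 ratio 0.03, -0.41 to 0.46), and its interval held 0. Between them lay Pcdha9 (1.54), Pcdha10 (1.67), Pcdha5 (1.48), Pcdhac1 (1.18) and Pcdha4 (1.09). Alternate isoforms without Pcdhac1 and Pcdhac2 summed to 2.61-fold higher, and Pcdhac1 with Pcdhac2 to 2.04-fold higher. Among the 13 Pcdha and 22 Pcdhg isoforms at the minimum, 14 had a larger share of their cluster in the synaptosome fraction than in the homogenate. The others, which were the majority, had a smaller one.

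**Figure D3:**
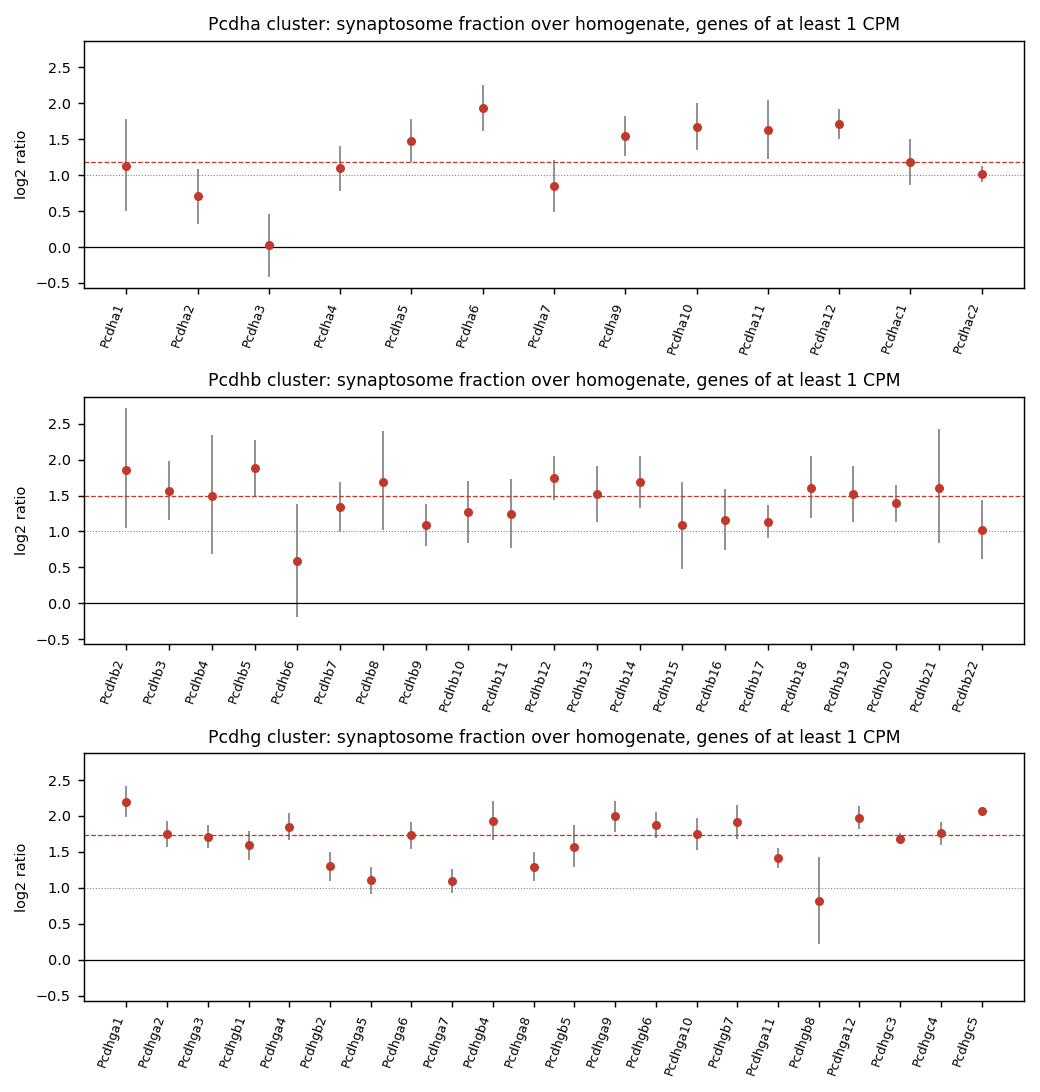
Log2 ratio of synaptosome fraction over homogenate (vertical axes, TMM scaled) for the clustered protocadherin genes of at least 1 CPM, in chromosomal order; bars are exact 95% counting intervals, the dotted line is 2-fold and the dashed line the median of the cluster (1.18 for Pcdha, 1.498 for Pcdhb and 1.74 for Pcdhg). Pcdha3 lies at 0.03 and the Pcdha genes are more scattered than the Pcdhg genes.

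The Pcdhb genes, whose single exons end in a short tail without the constant region, gave ratios that shared exons cannot affect. Of 21 genes at the minimum, 20 passed the 2-fold limit upward, beside 12.8% of all genes, and the median log2 ratio was 1.498. With library totals 11 of them did, beside 4.49% of all genes. Pcdhb17 was the most abundant, at 19.2 TPM in the synaptosome fraction and 12.7 TPM in the homogenate (362 and 257 counts, log2 ratio 1.14). Pcdhb20 had 336 counts in the synaptosome fraction and 200 in the homogenate (1.39), and Pcdhb12 had 285 and 133 (1.74). Pcdhb5 had the highest ratio, with 186 and 79 counts (1.88, interval 1.49 to 2.28). Pcdhb6 had the lowest, with 29 counts in the synaptosome fraction and 30 in the homogenate (0.59), and its interval, -0.19 to 1.38, held 0. Pcdhb14 (1.69), Pcdhb7 (1.34) and Pcdhb9 (1.09), the other Pcdhb genes of at least 10 CPM, lay within that range.

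Among delta-2 protocadherins 4 of 5 were at least 2-fold higher, beside 12.8% of all genes. Pcdh8, or arcadlin, which neuronal activity induces and which draws N-cadherin into the cell, stood highest of all 86 genes. At chr14:79766772-79771312 on the minus strand, it had 67.6 TPM in the synaptosome fraction and 19.6 TPM in the homogenate (1509 and 471 counts), a ratio of 5.00-fold (4.51 to 5.56). Its 2 transcripts were alike, at 4.96-fold and 5.05-fold. Pcdh17, which bears on the build-up of presynaptic vesicles, had 23.9 TPM in the synaptosome fraction and 15.1 TPM in the homogenate, 2.30-fold higher (2.11 to 2.51). Pcdh19, whose human counterpart is mutated in an epilepsy that mainly affects females, had 768 counts in the synaptosome fraction and 582 in the homogenate, 2.06-fold higher (1.85 to 2.30). Pcdh18, with 109 and 111 counts, was 1.53-fold higher (1.17 to 2.02) and below the 2-fold limit. With library totals Pcdh8 was the delta-2 gene that remained past 2-fold.

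The delta-1 protocadherins were also higher, 2 of 4 by at least 2-fold, beside 12.8% of all genes. With library totals 1 of the 4, Pcdh1, was past 2-fold, beside 4.49% of all genes. Pcdh1, a membrane receptor used by some hantaviruses, had 79.0 TPM in the synaptosome fraction and 32.5 TPM in the homogenate (1792 and 793 counts), 3.53-fold higher (3.24 to 3.84). Pcdh7 had 1947 counts in the synaptosome fraction and 1250 in the homogenate, 2.43-fold higher (2.26 to 2.61). Pcdh9 had 68.9 TPM in the synaptosome fraction and 56.1 TPM in the homogenate, the highest homogenate level of the group, and a ratio of 1.78-fold (1.68 to 1.90). Pcdh11x, on the X chromosome, had 123 and 98 counts and a ratio of 1.96-fold (1.49 to 2.58). Pcdh20, outside the delta families as grouped here, was 1.98-fold higher, with 614 counts in the synaptosome fraction and 484 in the homogenate.

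Pcdh10, a delta-2 protocadherin that links to the WAVE actin regulators and to the loss of excitatory synapses, was the member with well-measured transcripts that differed from each other by 2-fold or more. The gene, at chr3:45378398-45434579 on the plus strand, had 85.0 TPM in the synaptosome fraction and 51.4 TPM in the homogenate (2923 and 2098 counts), 2.18-fold higher (2.06 to 2.30). Its 4 deposited transcripts encode proteins that differ at the cytoplasmic end. The ends of the coding sequence are shown because they tell the transcripts apart. Sequences are from GENCODE M21 transcripts on GRCm38, matched by RefSeq accession and written 5′ to 3′ up to the stop codon. Capitals mark the coding bases that each transcript does not share with the others, and lower case the 30 bases before them:
NM_001098172: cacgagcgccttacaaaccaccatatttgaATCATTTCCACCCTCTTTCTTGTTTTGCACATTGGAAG
NM_001098171: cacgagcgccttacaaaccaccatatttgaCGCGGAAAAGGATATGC
NM_001098170: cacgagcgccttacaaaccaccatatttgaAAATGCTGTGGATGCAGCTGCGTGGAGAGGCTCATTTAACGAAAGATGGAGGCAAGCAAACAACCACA
NM_011043: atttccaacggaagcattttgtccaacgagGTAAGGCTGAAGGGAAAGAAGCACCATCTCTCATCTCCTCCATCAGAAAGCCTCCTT

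The own coding bases lie at chr3:45399323-45399360 in NM_001098172, at chr3:45419407-45419423 in NM_001098171, at chr3:45432474-45432541 in NM_001098170 and at chr3:45381884-45381940 in NM_011043, which has 1 exon where the others have 5. NM_001098172, with 38 such bases, had 32.1 TPM in the synaptosome fraction and 11.8 TPM in the homogenate (790 and 312 counts), 3.95-fold higher. NM_001098171, with 17, had 24.6 TPM in the synaptosome fraction and 22.0 TPM in the homogenate (1195 and 1150 counts), 1.62-fold higher. The ratio of the first was 2.44-fold that of the second. NM_001098172 thus held 27.0% of the gene's counts in the synaptosome fraction (25.4 to 28.7%) and 14.9% in the homogenate (13.4 to 16.5%), while NM_001098171 held 40.9% (39.1 to 42.7%) and 54.8% (52.7 to 57.0%). NM_001098170 kept nearly the same share, 24.4% in the synaptosome fraction and 24.5% in the homogenate, and NM_011043 had 7.65% and 5.82%. These shares do not depend on the scaling, but they do depend on how reads of shared exons were divided.

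**Figure D4:**
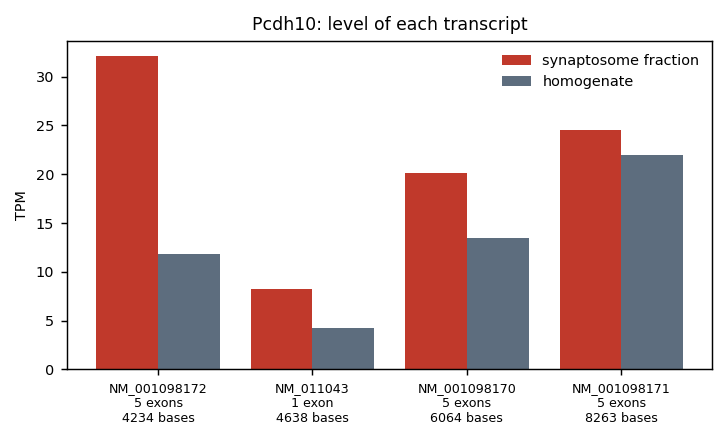
Level (vertical axis, TPM from 0) of the 4 Pcdh10 transcripts in the synaptosome fraction (red) and the homogenate (grey), ordered by transcript length. NM_001098172 had 32.1 TPM in the synaptosome fraction and 11.8 TPM in the homogenate, while NM_001098171 had 24.6 and 22.0 TPM.

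Among classical cadherins of type I, Cdh2 was higher. Cdh2 is N-cadherin, the main classical cadherin of brain synapses, and its gene also lies on chromosome 18. It had 119 TPM in the synaptosome fraction and 73.5 TPM in the homogenate (3212 and 2140 counts), 2.34-fold higher (2.22 to 2.48). Cdh4, or R-cadherin, had 541 counts in the synaptosome fraction and 488 in the homogenate, 1.73-fold higher (1.53 to 1.96). Cdh1, the epithelial cadherin, had 44 and 46 counts and Cdh15, the cadherin of muscle, 12 and 18, and the intervals of both ratios held 1.

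Of 13 type II cadherins, 2 were at least 2-fold higher (15.4%), a share near the 12.8% of all genes. The median log2 ratio was 0.64, with library totals 0.15. Cdh22 had 29.9 TPM in the synaptosome fraction and 18.2 TPM in the homogenate (622 and 407 counts), 2.39-fold higher (2.10 to 2.71). Cdh7 had 289 and 215 counts, 2.10-fold higher (1.75 to 2.52). Cdh11, known from bone-forming and mesenchymal cells and also expressed by neurons, had 1117 counts in the synaptosome fraction and 912 in the homogenate (1.91-fold). Cdh9, which acts at hippocampal mossy fibre synapses, had 385 and 332 (1.81-fold). Cdh10 was the most abundant type II gene, at 54.0 TPM in the synaptosome fraction and 50.4 TPM in the homogenate, and was 1.56-fold higher (1.43 to 1.70). Cdh20 (1.64-fold), Cdh8 (1.46-fold), Cdh18 (1.35-fold) and Cdh19 (1.15-fold) were below 2-fold as well, Cdh19 with an interval that held 1. Cdh8 had transcripts at 1.73-fold and 1.31-fold. Cdh6, Cdh12 and Cdh24, below 10 CPM, were at 1.97-fold, 1.34-fold and 1.08-fold.

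Cdh13, or T-cadherin, is anchored to the membrane by a lipid and has no cytoplasmic tail. It was the second most abundant cadherin per length, with 86.1 TPM in the synaptosome fraction and 59.7 TPM in the homogenate (1125 and 839 counts), 2.09-fold higher (1.91 to 2.29). Cdh23, part of the tip links of inner-ear hair cells, had 41 counts in the synaptosome fraction and 47 in the homogenate, and its ratio of 1.36-fold had an interval that held 1 (0.874 to 2.12).

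**Figure D5:**
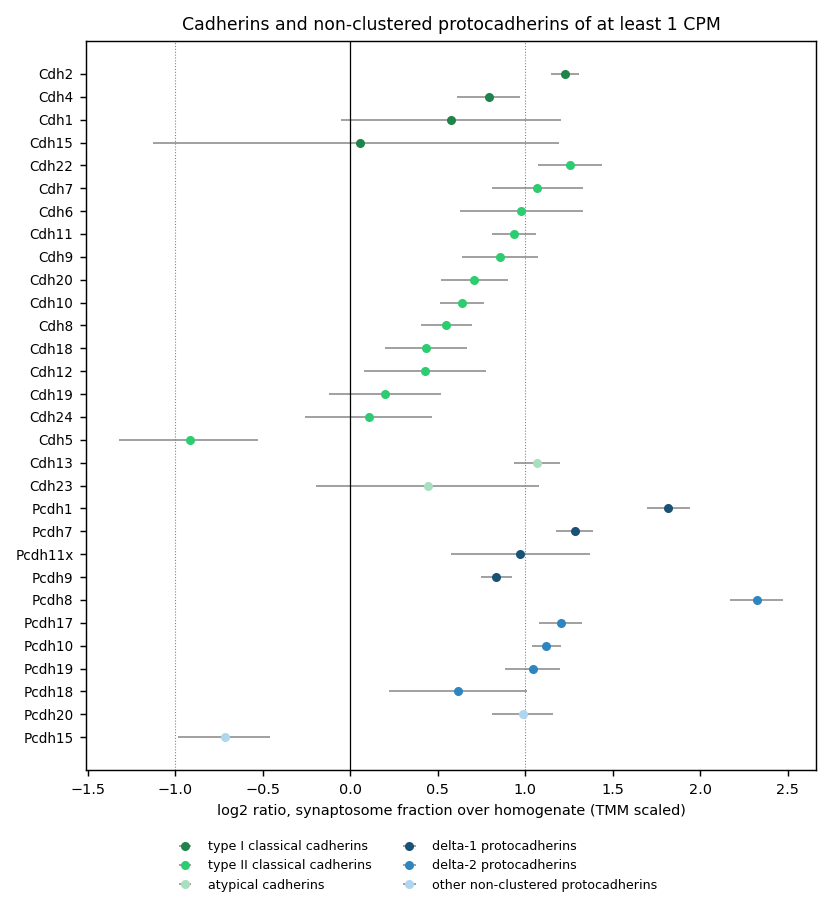
Log2 ratio of synaptosome fraction over homogenate (horizontal axis, TMM scaled) for the 30 cadherins and non-clustered protocadherins of at least 1 CPM, by subfamily; bars are exact 95% counting intervals and dotted lines mark 2-fold. Pcdh8 lies furthest to the right at 2.32, and Cdh5 (-0.92) and Pcdh15 (-0.72) lie left of 0.

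The intervals of Cdh5 and Pcdh15 lay below 1. Cdh5, or VE-cadherin, the cadherin of endothelial junctions, had 73 counts in the synaptosome fraction and 215 in the homogenate, 1.89-fold lower (1.44 to 2.49). Endothelial marker genes were lower as well: 11 of 11 were at least 2-fold lower, beside 9.10% of all genes. None of them was at 0 counts. They summed to 31.2 CPM in the synaptosome fraction and 231 CPM in the homogenate, with a median log2 ratio of -3.02. Their part in the value of Cdh5 was not tested. Pcdh12, a protocadherin of endothelium, fell below the minimum with 1 count in the synaptosome fraction and 9 in the homogenate. Pcdh15, the partner of Cdh23 in hair-cell tip links, which oligodendrocyte precursors also express, had 168 counts in the synaptosome fraction and 431 in the homogenate, 1.64-fold lower. Among 6 markers of precursors of oligodendrocytes 2 were called higher and 0 lower, beside 12.8% and 9.10% of all genes. None was at 0 counts, and the list summed to 458 CPM in the synaptosome fraction and 254 CPM in the homogenate (median log2 ratio 0.96). Its members differed: Sox10 had 369 counts in the synaptosome fraction and 951 in the homogenate, a log2 ratio of -0.72, and Olig2 was at 0.02. Gpr17 (0.93), Pdgfra (0.99), Cspg4 (1.63) and Tnr (1.71) lay in the opposite direction to Pcdh15. Their part in the value of Pcdh15 was not tested. The division of Pcdh15 and Cdh23 counts among their many near-identical transcripts was unstable, and no value of a single transcript is given.

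Marker mRNAs of other cell types, and dendritic and nuclear RNAs, also differed between the fractions. Over all genes 12.8% were higher and 9.10% lower by 2-fold or more. Of 10 astrocyte markers 8 were at least 2-fold higher (15001 CPM in sum in the synaptosome fraction and 3756 CPM in the homogenate), and of 9 dendritic mRNAs 7 were. Of 11 neuron markers 1, Camk2a, which is also among the dendritic mRNAs, was higher and 4 were lower, with a median log2 ratio of -0.87. They summed to 13823 CPM in the synaptosome fraction and 9693 CPM in the homogenate, but without Camk2a to 6639 and 7700 CPM. Of 6 nuclear RNAs 5 were lower (2168 and 9021 CPM). Of 8 oligodendrocyte markers 2 were higher, with a median of 0.31. Their sum was 22881 CPM in the synaptosome fraction and 7321 CPM in the homogenate, and without Mbp 5813 and 4103 CPM. Among the others, of 8 microglia markers 4 were higher (454 and 241 CPM), and of 10 mural and fibroblast markers 2 were higher and 4 lower (162 and 130 CPM). Of 6 choroid plexus and ependyma markers 2 were lower (214 and 533 CPM, or 43.2 and 40.1 CPM without Ttr). No marker at the minimum was at 0 counts. With library totals 4.49% of all genes were higher and 25.6% lower. Beside these shares, 5 astrocyte markers, 6 dendritic mRNAs, 2 microglia markers and 1 neuron marker were higher. Under that scaling 6 neuron markers, 6 nuclear RNAs and 3 choroid plexus and ependyma markers were lower. Oligodendrocyte markers then gave 2 higher and 1 lower, and mural and fibroblast markers 0 higher and 4 lower. Protocadherins and cadherins are expressed by glia as well as neurons, and the part of these differences in the values above was not tested.

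The remaining members had a mean under 1 CPM and get no ratio. Cdh3 had 10 counts in the synaptosome fraction and 10 in the homogenate, Cdh16 had 8 and 8, Cdh17 had 1 and 1, and Cdh26 had 4 and 11. Pcdha4-g had 16 counts in the synaptosome fraction and 8 in the homogenate, and Pcdha8 had 6 and 10. Pcdhb1 had 0 counts in both, which allows up to 3 counts in each library. With Pcdh12 these are the 8 genes below the minimum, and none was compared. Of them Pcdha4-g would be called higher if no minimum applied, from few counts that depend on the division of shared reads.

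By median, genes that work with cadherins stood closer to the typical gene than the protocadherins did. Of 10 catenins and related proteins 3 passed the 2-fold limit upward and 1 downward, beside 12.8% and 9.10% of all genes. Their median log2 ratio was 0.71. With library totals 0 passed upward and 1 downward, beside 4.49% and 25.6% of all genes, and the median was 0.22. Ctnnb1, or beta-catenin, which binds the cadherin tail, had 10010 counts in the synaptosome fraction and 7724 in the homogenate, 2.02-fold higher, and Pkp4 had 6145 and 3941, 2.43-fold higher. Pkp2, a desmosomal protein, had 51 and 165, 2.07-fold lower. Of 11 genes of the WAVE actin-regulating complex and of kinases that protocadherins bind, 2 passed the 2-fold limit upward (18.2%) and 1 downward (9.09%). These shares were near the 12.8% and 9.10% of all genes. The median of the 11 was 0.04. With library totals 1 passed upward and 2 downward, beside 4.49% and 25.6% of all genes, and the median was -0.46. In that set the WAVE paralogs differed: Wasf3 was 3.21-fold higher (1628 counts in the synaptosome fraction and 791 in the homogenate) and Wasf1 2.05-fold lower (1157 and 3699). Cyfip2 and Nckap1, the most abundant of that set, were at 0.994-fold and 1.03-fold.

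Of 7 proteases that cut cadherins, 0 were at least 2-fold higher or lower, beside 12.8% and 9.10% of all genes. Their median log2 ratio was 0.48, with a range between Adam17 (0.16) and Ncstn (0.79). With library totals that median was -0.01. Adam10, which sheds N-cadherin and gamma protocadherins, was at 0.53. Of 10 genes for chromatin and cohesin proteins, a list of regulators of which clustered protocadherin promoter is used, 0 passed the limit in either direction with TMM, and the median was -0.22. With library totals 2 were lower, beside 25.6% of all genes, and the median was -0.72, beside -0.51 for all genes. Rad21 was highest, with 2254 counts in the synaptosome fraction and 2118 in the homogenate (0.73), Smc1a was at -0.45, and Setdb1 was lowest, with 433 and 1112 (-0.72). The other genes of the cadherin superfamily were more like the protocadherins. Of these, 7 of 11 passed the 2-fold limit upward and 0 downward, beside 12.8% and 9.10% of all genes. Their median was 1.27. With library totals 4 passed upward and 1 downward, beside 4.49% and 25.6% of all genes, and the median was 0.77. Clstn1 and Clstn3, calsyntenins of the postsynaptic membrane, were 3.12-fold higher (25697 counts in the synaptosome fraction and 12857 in the homogenate) and 4.09-fold higher (17964 and 6856). Celsr3, which guides axons, was the one below 1, at 882 and 2030 counts, 1.47-fold lower and inside the 2-fold limit.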

How the data were processed

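RNA of 1 synaptosome-enriched and 1 total homogenate library of mouse brain was sequenced as 100-base reads, and the labels name both paired and single reads. The authors deposited expected counts and TPM for each transcript, and 1 signal value per gene, which was the summed expected count times a factor per library of 1.25 (synaptosome fraction) and 0.798 (homogenate). Per the submitters' processing notes, the build was mm10 and the tools were RSEM 1.2.5, TopHat 1.3.3, edgeR 3.0.6 and FastQC. The role of each tool and its settings are not stated in the sources used here. Posterior estimates of the counts, also deposited by the authors, served as an alternative chosen after seeing the data.

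Here expected counts were summed per gene, rounded to whole numbers and scaled by TMM (R 4.3.3, edgeR 4.0.16). The TMM factor was 0.843 in the synaptosome fraction and 1.19 in the homogenate. The 14153 genes averaging 1 CPM or more by library totals were compared. Ratios have exact 95% Clopper-Pearson intervals from the 2 counts. A gene at 0 in 1 library was given a floor of 3 counts. No replicate existed, so a rule of size (2-fold, interval excluding 1) replaced a test. Fully described members had a mean of at least 10 CPM, the highest or lowest ratio of their subgroup, or transcripts that differed 2-fold. Of Pcdhga and Pcdhgb genes with at least 10 CPM, only those near the ends of the range of ratios are named. Partner lists are shown by their 2 most abundant, highest and lowest genes. Other members that are named were below these limits. Members and lists were chosen with earlier results of these data known. Brk1 and Dchs2 were not found under those symbols; Fat2 and Dnmt3b were below the minimum. Alternatives were library totals, DESeq2 1.42.0 size factors, TPM, the deposited signal, other minimums, a 1.5-fold limit and sums without the most abundant gene. Calculations used Python 3.11.15 with numpy 2.4.6, pandas 2.3.3 and scipy 1.17.1 and were tested on simulated data. Pcdh10 sequences were read from GENCODE M21 transcripts.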

Additional observations from a re-analysis of the deposited data

How the results depend on the processing

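The scaling was the choice that moved most. With library totals and with deposited TPM, in that order, 34 and 31 members were at least 2-fold higher instead of 61, and 2 and 2 were lower instead of 0. The median log2 ratio was then 1.06 and 1.01 instead of 1.55 for clustered protocadherins, 0.15 and 0.10 instead of 0.64 for cadherins, and 0.55 and 0.50 instead of 1.04 for non-clustered protocadherins. The summed clusters gave 0.74 and 0.70 instead of 1.23 (Pcdha), 0.90 and 0.85 instead of 1.39 (Pcdhb), and 1.29 and 1.24 instead of 1.78 (Pcdhg). By construction, both settings leave out the TMM factors. Without its most abundant gene the Pcdha sum was 1.37 and the Pcdhg sum 1.66. A 1.5-fold limit gave 74 higher and 2 lower members. The number higher was 63 with DESeq2 size factors, 60 with the deposited signal, 61 with a prior of 0.5 counts and 60 with posterior counts. It was 62 of all 94 without a minimum and 45 of 56 at a minimum of 10 CPM. The number with a ratio above 1 was 84, against 77 with library totals and 76 with TPM.

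No paired analysis was possible because each fraction has 1 library, so that the fractions share fewer than 2 replicate numbers, and a replicate left out would leave nothing to compare. Depth limits the members under 1 CPM, and for Pcdha and Pcdhg isoforms the division of constant-exon reads limits the value.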
